A study of Homo sapiens with 7 samples.

Results

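The comparison described here sets double-stranded RNA of HCT116, an established line of human colon carcinoma cells, after the treatment labelled Vc against that after PBS, the control. Vc stands for vitamin C according to the published study; the labels give no dose for it. The members are the repeat families and repeat copies with at least 1 read in either of these 2 libraries, out of 7 libraries in the series. They come to 480 of the 499 families counted and 18649 of the 703140 annotated copies. RNA was recovered with the J2 antibody, which binds double-stranded RNA, after digestion with RNase T1 and DNase, and was then sheared and sequenced. The treatment text, shared by all samples, describes 0.3 µM of 5-Aza-CdR (decitabine, which blocks DNA methylation), a change of medium after 24 h and culture to day 5. It does not say when Vc was given or for how long. The same workbook, called set 2, holds 1 library each of 5-Aza-CdR and of the Combination (in the published account, 5-Aza-CdR with vitamin C); an earlier workbook, set 1, holds a further PBS library. The files count repeats and no genes, so the cell line could not be checked against marker genes.

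Endogenous retroviruses are remnants of old germline infections. A complete copy has an internal region flanked by long terminal repeats (LTRs), which carry the promoter, and most copies have been reduced to a single LTR. Transcripts of both strands of a copy, or of inverted copies in one transcript, can pair into double-stranded RNA, and DNA methylation keeps many copies silent. Vitamin C is a cofactor of the TET enzymes, which oxidise methylated cytosine and so aid its removal, and it is for this activity that it has been combined with inhibitors of DNA methylation.

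The PBS library held 19450 reads in families and the Vc library 18495. There was 1 library of each treatment, so no spread between replicates was available and no test was made. Ratios are given per counted repeat read with exact conditional binomial 95% intervals, and shares with 95% Wilson intervals. Both cover counting error only, because there was 1 library of each treatment. Amplified reads that carry no molecular identifier cannot be counted as separate molecules, so the intervals can be too narrow even for that error. Such ratios are relative to the other repeats and would not show a change in all of them, and in bulk RNA fewer cells with a transcript and less of it per cell cannot be told apart. Most copies were thinly read: 79.0% of the copies with reads in PBS, and 79.7% in Vc, had exactly 1 read.

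Across families the Vc library lay close to the PBS library. Of 143 families with at least 50 reads over both libraries, 126 were within 1.5-fold of equal shares. At least 2-fold higher in Vc were 3 families (2.10%) and at least 2-fold lower were 2 (1.40%), both on log2 ratios with 0.5 added to each count. The median log2 ratio was 0.07, with quartiles of -0.17 and 0.30. The spread narrowed with reads: the SD of the log2 ratios was 0.50 over the 61 families with 50 to 99 reads, 0.40 over the 41 with 100 to 199, and 0.21 over the 41 with 200 or more. The 95% interval left out equal shares for 20 of the 143 families (14.0%), 12 higher and 8 lower in Vc. Counting error alone, with all reads taken as separate molecules, would leave out about 5%.

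**Figure D1:**
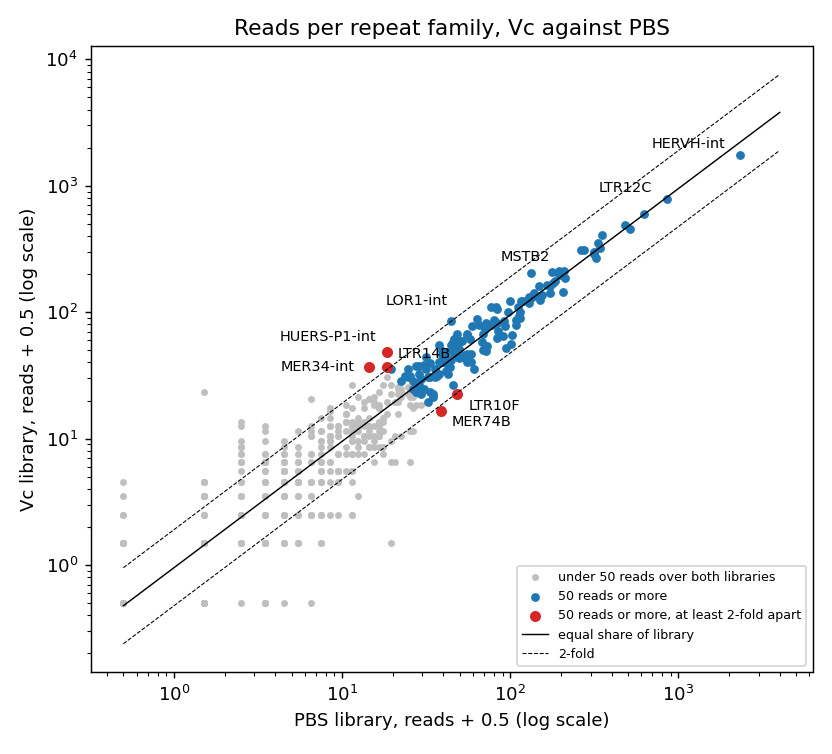
Reads per repeat family in the PBS library (x axis) and in the Vc library (y axis), each with 0.5 added, on log scales. The solid line marks equal shares of the 2 libraries and the dashed lines 2-fold differences; the 5 families in red, of the 143 with at least 50 reads, lie beyond the dashed lines.

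Other pairs of libraries lay further apart by the same measure. At least 2-fold apart were 3.50% of families for Vc and PBS, 17.3% of 139 for 5-Aza-CdR and PBS of set 2, and 19.5% of 154 for the Combination and PBS of set 2. These comparisons share the PBS library. After 5-Aza-CdR 6 families were higher and 18 lower, with quartiles of the log2 ratios of -0.68 and 0.02. After the Combination 9 were higher and 21 lower, with quartiles of -0.80 and -0.05. Ratios per counted repeat read fall for the other families where 1 family takes more of the reads. The part that the larger LTR12C share in those libraries, given below, plays in these percentages was not tested. Between the PBS libraries of the sets, which received the same treatment label, 32.0% of 150 families were at least 2-fold apart. The SD of the log2 ratios was 0.40, 0.69, 0.94 and 1.24 in the same order. The Vc library thus differed less from the PBS library of its own set than the 2 PBS libraries did from each other. The part that the set (its preparation, sequencing and counting) plays in that last spread was not tested.

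**Figure D2:**
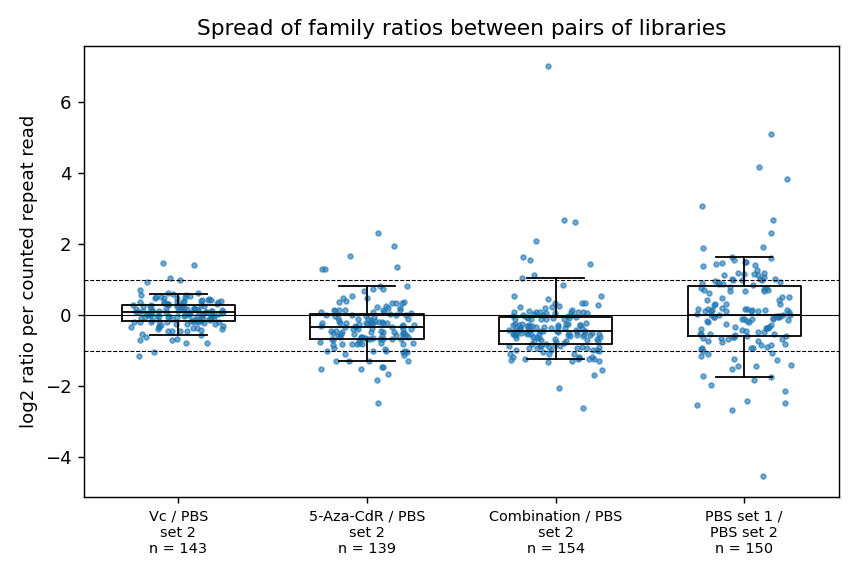
Log2 ratios of families with at least 50 reads over the pair of libraries named on the x axis. Points are families, boxes the quartiles and median, whiskers the 5th and 95th percentiles, and dashed lines 2-fold differences; the Vc and PBS pair is the narrowest, with 5 of 143 families beyond the dashed lines.

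HERV-H gave the most reads of any family and was lower in the Vc library. Its internal region, HERVH-int, had 2324 reads in PBS and 1737 in Vc, a ratio of 0.786 (0.738 to 0.837). LTR7, the LTR of HERV-H and its promoter, had 102 and 66 reads, a ratio of 0.680 (0.492 to 0.936). HERV-H is known for transcription in pluripotent stem cells and in some colon cancers. The LTR7 and HERVH group as a whole held 13.1% of family reads in PBS (12.6 to 13.6) and 10.4% in Vc (10.0 to 10.9), intervals that do not overlap. Not every relative followed: LTR7B had 27 reads in PBS and 37 in Vc, and LTR7Y 11 and 13.

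The lower HERVH-int count was not held by 1 copy. The provirus with the most HERVH-int reads lay on chromosome 1 (pieces from 68852123 to 68857245, hg19), with 307 reads in PBS and 206 in Vc, a ratio of 0.706 (0.589 to 0.845). Without its 7 pieces the family had 2017 and 1531 reads, a ratio of 0.798 (0.747 to 0.854). By length, pieces under 500 bp stood at 0.634 (0.551 to 0.729), pieces of 500 to 1000 bp at 0.882 (0.770 to 1.01) and longer ones at 0.814 (0.749 to 0.884). Pieces with at least 5 reads numbered 129 in PBS and 92 in Vc. Of the 14 pieces with at least 20 reads over both libraries, 7 were lower in Vc, 2 of them by at least 2-fold, and 0 were at least 2-fold higher, beside 4.94% lower and 9.88% higher of all 162 such copies. Of the other 7, 3 had 10 reads in each library. Of the 2 pieces at least 2-fold lower, the one on chromosome 13 (109917870 to 109921795) had 26 PBS and 10 Vc reads. It had 40 after 5-Aza-CdR and 58 after the Combination. HERVH-int had 2539 reads in 5-Aza-CdR and 2751 in the Combination, whose libraries were larger (23528 and 32403 family reads).

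LTR12C, the LTR of the HERV-9 group and the family with the most reads after 5-Aza-CdR, took the same share in both libraries within counting error. It had 851 reads in PBS and 786 in Vc, a ratio of 0.971 (0.881 to 1.07), beside 5130 after 5-Aza-CdR and 8655 after the Combination. The other HERV-9 families had few reads and mixed ratios. LTR12D had 83 reads in PBS and 106 in Vc, a ratio of 1.34 (0.998 to 1.81). HERV9-int, the internal region, had 90 and 64, a ratio of 0.748 (0.534 to 1.04), and LTR12_ had 34 and 22. LTR12 had 25 and 23 reads, a ratio of 0.968 (0.525 to 1.78), LTR12E 13 and 12, and LTR12F 9 and 10, with intervals that include equal shares. Of the 4 families of the LTR12 and HERV9 group with at least 50 reads, 0 were 2-fold apart, against 3.50% of all 143.

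The LTR12C reads were spread over fewer copies in the Vc library. Of 2656 annotated copies, 520 had reads in PBS and 407 in Vc, with 177 in common (34.0% of the PBS copies and 43.5% of the Vc copies). Copies with reads in PBS and 0 in Vc numbered 343, and those with reads in Vc and 0 in PBS 230, a ratio of 0.671 (0.565 to 0.795). Ratios of numbers of copies are not scaled by library reads, and their intervals treat copies as independent, which was not tested. Over the copies of all families except LTR12C and HERVH-int the corresponding numbers were 7447 and 6972, a ratio of 0.936 (0.906 to 0.967). For HERVH-int they were 420 and 299, a ratio of 0.712 (0.612 to 0.828), so a drop in copies was not seen for LTR12C alone. The families were unlike in reads, however. HERVH-int also had fewer reads in Vc, a ratio of 0.786, whereas LTR12C kept its share at 0.971. Copies with at least 5 LTR12C reads went the other way, with 14 in PBS and 20 in Vc. The 25 copies with at least 5 reads in either library had 215 reads in PBS and 279 in Vc, and the remaining copies 636 and 507. The 25 copies included one on chromosome 10 (74060187 to 74061778), with 94 reads in PBS and 133 in Vc, a ratio of 1.49 (1.13 to 1.96). It had 101 reads after 5-Aza-CdR and 114 after the Combination. Without it LTR12C stood at -0.14 on the log2 scale. Counts of copies depend on how reads matching more than 1 copy were placed, and none of the sources gives that rule.

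Some LTR12 copies with reads after 5-Aza-CdR had more reads in Vc than in PBS and others fewer, mostly within counting error. An LTR12D copy on chromosome 19 (8451280 to 8451985) had 11 PBS and 28 Vc reads, with 86 after 5-Aza-CdR and 104 after the Combination; its ratio in Vc was 2.68 (1.29 to 5.96). A pair of LTR12C copies lay within 10 kb of each other on chromosome 1. The first (154643044 to 154644474) had 0 PBS and 6 Vc reads, with 13 after 5-Aza-CdR and 25 after the Combination. The second (154650331 to 154651788) had 7, 16, 62 and 86 reads in the same order, a ratio in Vc of 2.40 (0.936 to 6.91), whose interval includes no difference. Fewer reads in Vc, with an interval that includes equal shares, lay on an LTR12D copy within 10 kb of the one on chromosome 19 (8444045 to 8444798). It had 13 PBS and 11 Vc reads, a ratio of 0.890 (0.361 to 2.15), and 46 and 63 in the libraries given 5-Aza-CdR. The same held for an LTR12C copy on chromosome 14 (24053109 to 24054656), with 16, 10, 28 and 59 reads, a ratio of 0.657 (0.267 to 1.54). Chromosome 15 held an LTR12C copy (79139033 to 79140411) with 8 PBS and 0 Vc reads, but only 3 after 5-Aza-CdR and 7 after the Combination.

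The HERV-Fc proviruses, which were read mainly in the libraries given 5-Aza-CdR, were not detectable above the floor in either library. HERV-Fc2-int had 0 PBS reads and 1 Vc read, against 27 after 5-Aza-CdR and 106 after the Combination. HERV-Fc1-int had 0, 1, 10 and 36. A count of 0 of 19450 reads allows a share of up to 0.0154%. The HERV-Fc2-int copy on the X chromosome (97096856 to 97104052), with 21 reads in 5-Aza-CdR and 93 in the Combination, had 0 in both PBS and Vc; the single Vc read lay on chromosome 11. LTR48B, an ERV1 LTR, had 6 reads in PBS and 10 in Vc, and 22 and 29 in the libraries given 5-Aza-CdR.

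Among young HERV-K elements, LTR5_Hs, the LTR of the youngest group (HML-2), had 274 reads in PBS and 310 in Vc, a ratio of 1.19 (1.01 to 1.40). The 9 LTR5_Hs copies with at least 5 reads in either library had 117 reads in PBS and 105 in Vc. The higher count thus lay on the remaining copies, with 157 and 205. LTR5_Hs was the densest of the named families per length, with 510 reads per Mb of annotated sequence in PBS and 577 in Vc. HERVK-int, the HML-2 internal region, had only 22 and 10 reads, a ratio of 0.478 (0.202 to 1.05). MER11C, an LTR of another HERV-K group, had 94 reads in PBS and 52 in Vc, a ratio of 0.582 (0.406 to 0.825), and its copies with reads numbered 81 and 44. MER11B reads lay largely on 1 copy of chromosome 3 (15779666 to 15780942), with 87 reads in PBS and 54 in Vc, a ratio of 0.653 (0.456 to 0.927). LTR14B was higher in Vc, as described below. In the group of older HERV-K families 1 of 8 with at least 50 reads was at least 2-fold higher and 0 were lower, against 2.10% and 1.40% of all 143.

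The 2 families at least 2-fold lower in Vc were MER74B and LTR10F. MER74B, an LTR of the ERVL class, had 38 reads in PBS and 16 in Vc, a ratio of 0.443 (0.231 to 0.813). LTR10F, which flanks HERV-I elements, had 48 and 22, a ratio of 0.482 (0.277 to 0.814), beside 81 after 5-Aza-CdR and 167 after the Combination. The log2 ratio of LTR10F was -1.04, and -0.99 with 2 added to each count. The reads of both came from many copies: the copy with the most reads held 20.4% of the MER74B reads and 11.4% of the LTR10F reads. LTR10F copies with reads numbered 34 in PBS and 15 in Vc, and MER74B copies 26 and 14. The PBS library of set 1 had 2 LTR10F reads, against 48 in that of set 2. These are counts of different workbooks, not scaled by library reads, so they give no ratio.

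The 3 families at least 2-fold higher were HUERS-P1-int, MER34-int and LTR14B, and in each a single copy held most of the reads. HUERS-P1-int, the internal region of the HUERS-P1 group, had 18 reads in PBS and 48 in Vc, a ratio of 2.80 (1.60 to 5.12). A piece of 69 bp on chromosome 5 (137765896 to 137765964) supplied 5 of these reads in PBS and 38 in Vc. Without it the family had 13 and 10 reads, and its log2 ratio turned from 1.46 to -0.29. MER34-int, an internal region of the ERV1 class, had 14 and 36 reads, a ratio of 2.70 (1.42 to 5.43). Of these, 12 and 27 lay on 1 copy of chromosome 4 (53610040 to 53612340), and 2 and 9 elsewhere. LTR14B, an LTR of a HERV-K group, had 18 and 36 reads, a ratio of 2.10 (1.16 to 3.93), with 10 and 24 on 1 copy of chromosome 16 (11929619 to 11930188); without that copy its log2 ratio was 0.63. LTR14B passed the limit narrowly: its log2 ratio of 1.05 was 0.98 unscaled. LOR1-int, an ERV1 internal region, stood just below the 2-fold limit, with 44 and 84 reads and a log2 ratio of 0.998.

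The 10 families with the lowest ratios and the 10 with the highest differed in how reads lay over copies. In 9 of the 10 lowest, fewer copies had reads in Vc than in PBS, and the copy with the most reads held a median of 13.8% of reads. In the 10 highest this median was 27.0%, and 2 had fewer copies with reads in Vc. Leaving out the copy with the most reads turned the sign in 2 of the 10 lowest, HERVK3-int and MER52D, and in 1 of the 10 highest, HUERS-P1-int. These families were chosen by their ratios, and fewer Vc reads largely bring fewer copies with reads. The values over all families with at least 50 reads are not given here, so the counts and medians are a description only.

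**Figure D3:**
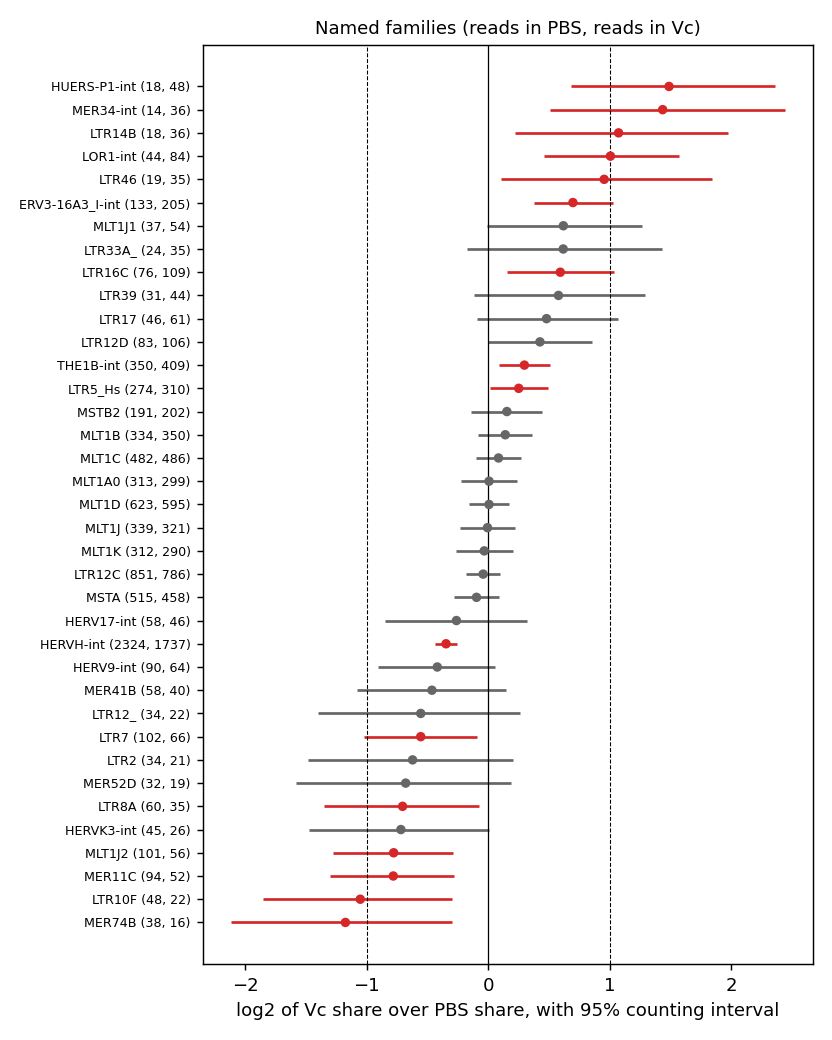
Log2 of the share of reads in Vc over that in PBS (x axis) for the named families with at least 50 reads, with 95% counting intervals and reads in PBS and Vc in brackets. Intervals in red leave out equal shares; dashed lines mark 2-fold differences. HERVH-int, with 2324 and 1737 reads, has a narrow interval below 0.

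Of the ERVL groups, 2 held a higher share in Vc by a modest amount and 1, of MER21, MER54, MER74 and MER77, did not, with a ratio of 0.915 (0.802 to 1.04) and a median log2 ratio of -0.37. The group of LTR16, LTR33 and ERV3-16 families held 3.88% of family reads in PBS (3.61 to 4.16) and 4.67% in Vc (4.37 to 4.98), a ratio of 1.20 (1.09 to 1.33). Its median log2 ratio was 0.28, against 0.07 over all families, and 7 of its 9 families with at least 50 reads were above 0, as were 84 of all 143. ERV3-16A3_I-int, an ERVL internal region, had 133 reads in PBS and 205 in Vc, a ratio of 1.62 (1.30 to 2.03). Its copies with reads numbered 67 and 91, and without the copy with the most reads its log2 ratio was 0.71. LTR16C had 76 and 109 reads, but 26 of those in Vc lay on 1 copy with 0 in PBS, and without it the log2 ratio was 0.20. The MLT2 and HERVL group, of the same class, held 4.59% of reads in PBS and 5.17% in Vc, a ratio of 1.13 (1.03 to 1.23), with 11 of its 12 families above 0, beside the same 84 of 143, and a median of 0.21. Equal reads in both libraries, as in the MER4 group with 209 each, stand at 0.07 on this scale. Small values above 0 therefore depend on the scaling.

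The MaLR elements, non-autonomous relatives of ERVL that make up a large part of human LTR sequence, held similar shares in both libraries. The MLT1A to MLT1D group held 11.5% of reads in PBS and 11.7% in Vc, and the MLT1E and later group 11.5% and 11.6%; 0 of their 6 and 21 families with at least 50 reads were 2-fold apart, beside 3.50% of all 143. MLT1D had 623 and 595 reads, with an interval of the ratio of 0.896 to 1.13, and MLT1C 482 and 486. MLT1J2 stood apart, with 101 and 56 reads, a ratio of 0.583 (0.413 to 0.816); 14 of the PBS reads came from 1 copy that had 0 in Vc. THE1 families held 8.87% and 9.37% of reads. The internal regions THE1A-int (264 and 308 reads, a ratio of 1.23, 1.04 to 1.45) and THE1B-int (350 and 409, 1.23, 1.06 to 1.42) were higher in Vc, while the LTR THE1B had 322 and 266 reads. MST families held 7.37% and 7.72%. MSTB2 had 191 reads in PBS and 202 in Vc but 41 in 5-Aza-CdR and 52 in the Combination, and 170 of its PBS reads and 181 of its Vc reads lay at a locus on chromosome 5.

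**Figure D4:**
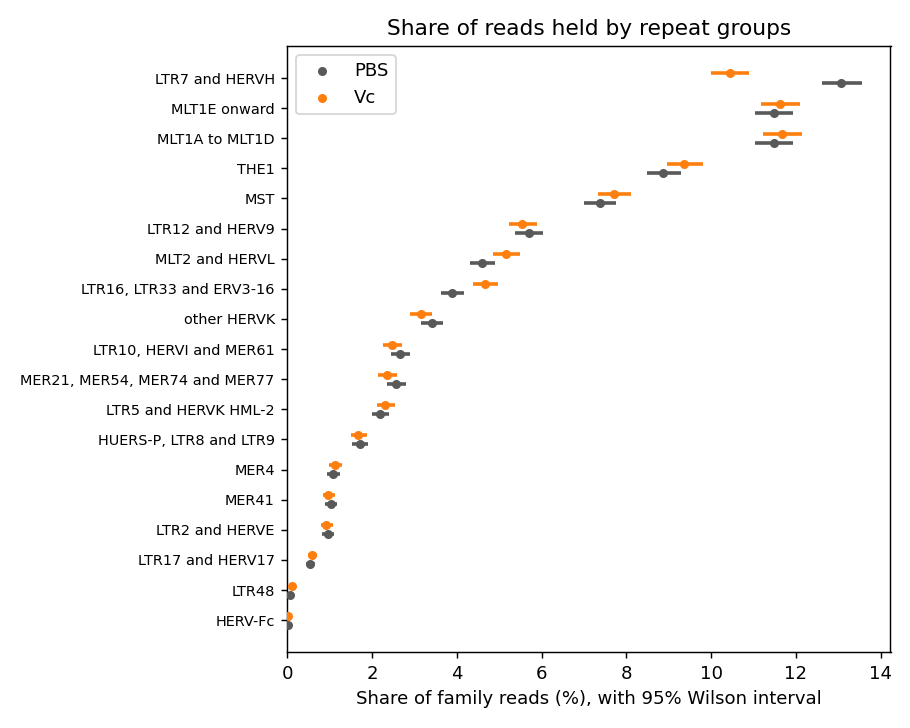
Share of family reads (x axis, %) held by each repeat group in the PBS and Vc libraries, with 95% Wilson intervals. The LTR7 and HERVH group is lower in Vc (10.4% against 13.1%) and the LTR16, LTR33 and ERV3-16 group higher (4.67% against 3.88%); most other pairs overlap.

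Shares of the other groups lay within counting error of each other. The ratio of Vc to PBS was 1.06 (0.924 to 1.21) for LTR5 and HERVK HML-2, 1.08 (0.818 to 1.43) for LTR17 and HERV17, which is the HERV-W group, and 0.972 (0.784 to 1.20) for LTR2 and HERVE. It was 0.929 (0.818 to 1.06) for LTR10, HERVI and MER61, 0.945 (0.768 to 1.16) for MER41, 1.05 (0.864 to 1.28) for MER4, and 0.985 (0.841 to 1.15) for HUERS-P, LTR8 and LTR9. Within HUERS-P, LTR8 and LTR9 the members went both ways, since LTR8A, with 60 and 35 reads, had a ratio of 0.613 (0.392 to 0.946). Internal regions together held 30.0% of reads in PBS and 29.7% in Vc, with a median log2 ratio of 0.18 over 33 families, and LTRs 70.0% and 70.3%, with a median of 0.04 over 110.

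The strongest copies of the PBS library were nearly all found again in the Vc library. Of 564 copies with at least 5 reads in PBS, 93.8% had a read in Vc, and of 545 such copies in Vc, 93.8% had a read in PBS. With at least 20 reads these were 96.7% of 61 and 98.4% of 62. Copies with reads in both libraries numbered 2938 and held 52.5% of PBS reads and 54.3% of Vc reads. The remaining reads lay on copies read in 1 library: 8210 copies in PBS and 7501 in Vc, of which 53 and 63 had more than 3 reads.

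A pair of MaLR copies on chromosome 5 had more reads, summed over PBS and Vc, than the HERVH-int provirus on chromosome 1, although fewer in PBS alone, and was close to equal in both libraries. An MSTB2 copy (862748 to 862918) had 170 and 181 reads in them, against 27 after 5-Aza-CdR and 30 after the Combination. The neighbouring MLT1A1 copy (860625 to 860972) had 121, 114, 10 and 5. Together they held 291 reads in PBS and 295 in Vc, a ratio of 1.07 (0.904 to 1.26). Other abundant copies with intervals that included equal shares were an ERVL-B4-int copy on chromosome 8 (144826526 to 144827385; 58 and 59 reads), an MLT1C copy on chromosome 6 (36107458 to 36107873; 42 and 50), an MLT1H copy on chromosome 12 (112944404 to 112944750; 39 and 53) and an MLT1J copy on chromosome 20 (390955 to 391309; 60 and 45).

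Of 162 copies with at least 20 reads over both libraries, 16 were at least 2-fold higher in Vc (9.88%) and 8 at least 2-fold lower (4.94%). The 95% interval left out equal shares for 24 (14.8%), close to the percentage for families. These copies were picked by their Vc and PBS reads, so where those libraries rank beside 5-Aza-CdR and the Combination is largely set by the choice and is not read as a result.

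**Figure D5:**
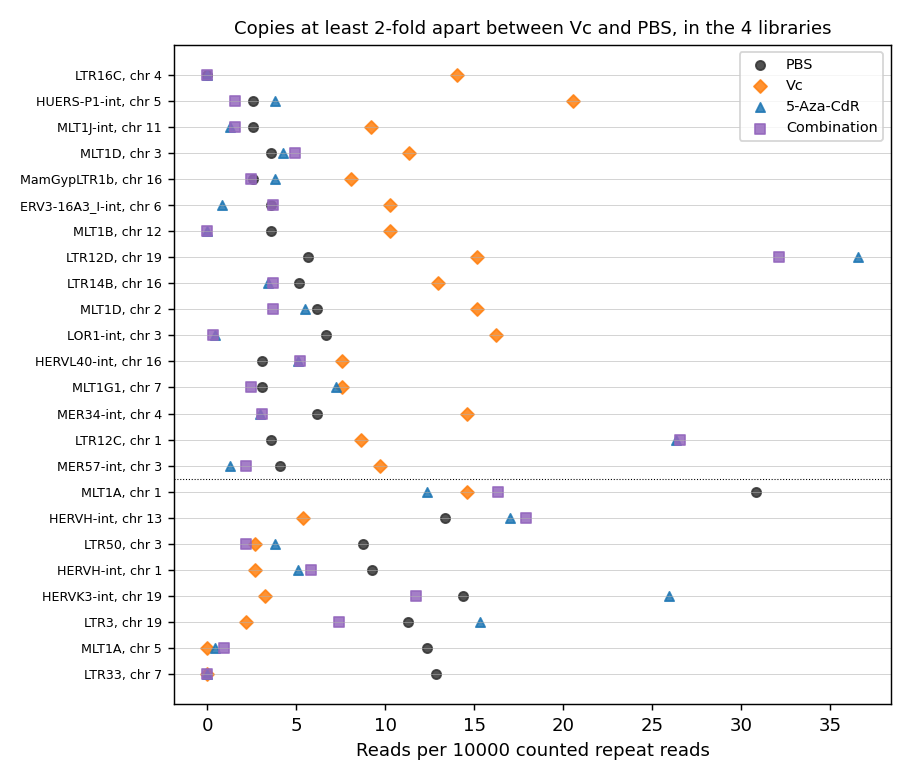
Reads per 10000 counted repeat reads (x axis) in the 4 libraries of set 2 for the 24 copies at least 2-fold apart between Vc and PBS, named by family and chromosome. Copies above the dotted line were higher in Vc (16) and those below it lower (8). The copies were chosen by their PBS and Vc values; the LTR12D copy on chromosome 19, with 86 and 104 reads in the libraries given 5-Aza-CdR, lies far to the right there.

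At 3 of these copies 1 of the libraries had 0 reads. An LTR16C copy on chromosome 4 (83691801 to 83692106) gave 26 reads in Vc and 0 in PBS, 5-Aza-CdR and the Combination. With the PBS library at a floor of 3 counts, this is at least 9.12-fold higher in Vc, taking the 26 reads as exact. An LTR33 copy on chromosome 7 (43254394 to 43254592) gave 25 PBS reads and 0 in the other 3 libraries, at least 7.92-fold lower in Vc by the same floor. An MLT1A copy on chromosome 5 (82203689 to 82204053) gave 24 PBS and 0 Vc reads, 1 after 5-Aza-CdR and 3 after the Combination, at least 7.61-fold lower in Vc. These copies had their reads in a single library of the workbook, or nearly so.

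Copies next to each other differed in the same direction at some places and in both directions at others. On chromosome 19 an LTR3 copy (58817037 to 58817467) and the HERVK3-int region beside it (58817484 to 58821622), parts of a HERV-K provirus, had 22 and 28 reads in PBS but 4 and 6 in Vc. They had 36 and 61 reads in 5-Aza-CdR and 24 and 38 in the Combination. Summed, Vc stood at 0.210 of PBS (0.0951 to 0.420). Both copies were picked for their low ratios, so this interval is a description only. On chromosome 6 a pair of ERV3-16A3_I-int pieces (138736508 to 138741562) had 17 reads in PBS and 37 in Vc, a ratio of 2.29 (1.26 to 4.34). The adjoining ERV3-16A3_LTR (138741565 to 138742007) had 0 in PBS and 8 in Vc. A piece of this pair was picked for its high ratio and the LTR for its 0 in PBS, so these values too are a description only. On chromosome 2 an MLT1D copy (37327416 to 37327575), picked for its high ratio, had 12 and 28 reads. The MSTB1 copy within 10 kb of it had 40 and 44, a ratio of 1.16 (0.737 to 1.82), whose interval includes equal shares. Their sum was 52 and 72, a ratio of 1.46 (1.01 to 2.12) that rests largely on the MLT1D copy. Of 19 places where 2 or more of the 162 copies lay within 10 kb, all copies were above 0 on the log2 scale at 8, all below 0 at 2 and of both signs at 9. Over all 162 copies, 94 were above 0 and 68 below. With such shares many independent pairs would have the same sign, so the numbers of places are a description only. Neighbouring copies can be read from 1 transcript and are not independent of each other.

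Further copies at least 2-fold higher in Vc, with intervals that left out equal shares, included LOR1-int on chromosome 3 (44791708 to 44792544), with 13 PBS and 30 Vc reads but 1 each in 5-Aza-CdR and the Combination. An MLT1J-int copy on chromosome 11 (17354555 to 17355259) gave 5 and 17 reads, an MLT1D copy on chromosome 3 (45125816 to 45126244) 7 and 21, and an MLT1B copy on chromosome 12 (46863764 to 46864106) 7 and 19. Among the lower copies, an MLT1A copy on chromosome 1 (158893902 to 158894106) gave 60 PBS and 27 Vc reads, a ratio of 0.473 (0.289 to 0.757), and 29 and 53 in 5-Aza-CdR and the Combination. An LTR50 copy on chromosome 3 (44480937 to 44481166) gave 17 and 5 reads, a ratio of 0.309 (0.0892 to 0.874).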

How the data were processed

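Read counts were deposited by the authors as 2 workbooks. Deposited values are a raw count of reads per repeat family or per annotated copy, per the file headers. The submitters' processing notes name hg19, Bowtie2 and Picard; the name of the workbook used here refers to marking of duplicates. Whether duplicates were removed, which tool counted the reads and how reads matching more than 1 copy were placed is not given in the sources used here. Family and copy counts summed to the same totals, apart from 3 PBS reads more in the copy sheets. Copy coordinates are hg19 and 1-based.

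Ratios were scaled by the total reads counted in the same sheets and computed with Python 3.11.15, numpy 2.4.6 and scipy 1.17.1. Alternative scalings used the trimmed mean of edgeR 4.0.16 and the size factors of DESeq2 1.42.0, in R 4.3.3. Read minimums were 50 for families and 20 for copies. Zeros were set at a floor of 3 counts per library. The interval and call functions were checked on simulated data. Members, lists and named families were chosen with earlier results of these data known. The named families were the 10 with most reads, the 10 highest and 10 lowest ratios, and a fixed list; the named copies followed the same rule with no fixed list, and further families and copies were added after their values were seen. Name patterns of 4 lists that took in unrelated families sharing a first digit were trimmed after the values were seen. No test between treatments was run. Sequences of the copies and nearby genes were not analysed here.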

Additional observations from a re-analysis of the deposited data

How the results depend on the processing

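No paired analysis was possible because Vc and PBS of set 2 have 1 library each. Scaling by the trimmed mean, by the total of the other sheet or by the total without the most abundant family or copy, and taking family counts from the copy sheets, changed the numbers of families and copies 2-fold apart by at most 1. Size factors were 1 for both libraries, the same as no scaling, and gave 2 families higher and 2 lower, and 16 copies higher and 9 lower. The read minimum mattered most: with 20 reads 9 families were higher and 11 lower, with 100 reads 0 and 0, and with no minimum 47 and 56. For copies, a minimum of 10 reads gave 51 higher and 45 lower, 40 reads gave 3 and 1, and no minimum 7701 and 8460, most of them single reads against 0. With 2 added to each count, 2 families were higher and 1 lower, since LTR14B (0.9986) and LTR10F (-0.986) no longer passed; LTR14B also missed the limit unscaled (0.980). Without each family's copy with most reads, an alternative chosen after seeing the data, 2 families were higher and 3 lower, and HUERS-P1-int reversed to -0.29.

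Group medians moved with the read minimum, since groups hold few families. With 20 and 100 reads the log2 medians were -0.0436 and -0.0419 for LTR12 and HERV9 (-0.23 as reported), -0.00360 and -0.35 for LTR7 and HERVH (-0.15), and -0.18 and -0.39 for other HERVK (0.07). With 20 reads LTR2 and HERVE stood at -0.38 (0.31) and internal regions at 0.13. Unscaled, or by size factors, the median was 0.11 for internal regions, -0.0322 for LTRs and 0 for all families; without HERVH-int in the total it was -0.000864 for LTRs and 0.0313 for all families. Counting LTR12C copies with at least 2 reads gave 137 in PBS and 117 in Vc, and with at least 5 reads 14 and 20. Depth limits the copies: 162 of 18649 had at least 20 reads.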

Other observations

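Reads were placed alike in the 2 libraries by copy length and annotated strand. Copies under 200 bp held 13.8% of reads in PBS and 13.7% in Vc, and copies of 1000 bp or more 23.2% in both. For copies annotated on the plus strand the 95% interval of the ratio of Vc to PBS ran from 0.976 to 1.03. Over the autosomes and the X chromosome, the ratio per chromosome ran from 0.840 (chromosome 22, 0.724 to 0.974) to 1.15 (chromosome 4, 1.06 to 1.26), and the interval left out 1 for 3 of 23. The third, chromosome 1, stood at 0.910 (0.852 to 0.971) and carries the HERVH-int provirus with the most reads.

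Copies with at least 6 reads in Vc and 0 in PBS numbered 23, and 14 of them had a read in 5-Aza-CdR or the Combination. Copies with at least 6 reads in PBS and 0 in Vc numbered 18, and 12 of them had such a read. The share over all copies with at least 6 reads is not given here, so these numbers are a description only. Among the copies with 0 in PBS were an LTR46-int copy on the X chromosome (62646749 to 62647932) with 18 reads in Vc and 0 in the other 3 libraries, and an MLT1B copy on chromosome 22 (37659535 to 37659830) with 18 in Vc and 1 in the Combination.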
